A study of Danio rerio with 14 samples.

Results

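The genes pde6ha and pde6hb encode the inhibitory subunits of the cone photoreceptor phosphodiesterase, and their transcripts were followed over the day in the zebrafish pineal gland. Members were the probe sets whose single gene symbol in the platform annotation was pde6ha or pde6hb. The rule found 2 of the 8792 named genes and 3 of 15501 probe sets, and all 3 were among the 9299 probe sets bright enough to be tested. pde6ha was read by a pair of probe sets, called by their mean signal the brighter probe set (identifier ending in _a_at) and the second probe set below, and pde6hb by a single one. Brightness of different probe sets also depends on the probes, so levels were compared between arrays for a probe set and not between probe sets.

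Light is detected in vertebrate photoreceptors when an activated opsin switches on transducin, which in turn releases the phosphodiesterase from its inhibitory subunits. The freed catalytic subunits break down cyclic GMP, and the cation channels that cyclic GMP holds open then close. Rods and cones use different genes for most of these steps, and the inhibitory subunit of cones is encoded in mammals by PDE6H, of which zebrafish carry the a and b copies. The fish pineal gland holds photoreceptors of its own as well as a circadian clock, and releases melatonin at night.

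All fish were adult Tg(aanat2:EGFP)Y8 zebrafish of both sexes, 3 to 6 months old, raised at 28 °C, in which a transgene driven by aanat2, a gene of melatonin synthesis, labels the gland for dissection; there was no group without the transgene. During the day of collection the fish either stayed in their cycle of 12-h light and 12-h dark (LD) or saw no light at all (constant darkness, DD), with 7 arrays for each. Samples were taken at zeitgeber times (ZT, hours after lights on in LD) 2, 6, 10, 14, 18 and 22 and at a further point labelled ZT2b, which the labels leave unexplained and which was taken as ZT2. Each array held amplified RNA from a pool of 12 glands, so that every array is a separate pool and, ZT2 apart, each time had 1 pool in each condition. The values are MAS5 signals, which are fluorescence intensities on a linear scale.

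The median signal lay between 42.2 and 50.8 on the 14 arrays. The DD array of ZT10 stood apart: its mean correlation with the other DD arrays was 0.913, where each of the other 13 arrays had 0.944 to 0.958 within its condition. Its GAPDH 3'/5' ratio was 16.7 (5.09 to 12.9 on the others) and its poly-A spikes had a geometric mean of 1620 (90.0 to 237 on the others). Several of the differences, waves and ratios of pde6ha are given without it as well. The geometric mean of the hybridisation spikes also ran with condition, at 438 to 653 on the LD arrays, 325 to 452 on 6 of the DD arrays and 643 on DD ZT10. Of 5 measured pineal photoreceptor markers all were tested, and exorh, the pineal opsin, had signals of 10136 to 13925 in LD and 9419 to 14442 in DD.

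In LD pde6ha was highest at ZT6, ZT10 and ZT14, the last of which is a night collection. The brighter probe set read 9500.5 at ZT2 and 10756 at ZT2b in LD, 15428 at ZT6, 14845 at ZT10, 13827 at ZT14, 7459 at ZT18 and 6649.5 at ZT22. In DD it read 6984 at ZT2, 7386 at ZT6, 6914 at ZT10, 5567 at ZT14, 4814 at ZT18, 4604 at ZT22 and 4539 at ZT2b. The LD arrays of ZT6, ZT10 and ZT14 were the highest of the 14, and the DD arrays of ZT18, ZT22 and ZT2b were the lowest. The conditions overlapped: 6 of 7 LD arrays exceeded the highest DD array, and LD ZT22 lay below 3 of the DD arrays.

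The second pde6ha probe set had the same arrays at its top, with a wider range. In LD it read 4481.5 at ZT2, 10019 at ZT6, 10050 at ZT10, 7806 at ZT14, 1955 at ZT18, 1799 at ZT22 and 5307 at ZT2b. In DD it read 1945 at ZT2, 2014 at ZT6, 819 at ZT10, 1116 at ZT14, 879.8 at ZT18, 551 at ZT22 and 561 at ZT2b. Here 5 of 7 LD arrays exceeded every DD array, and the LD arrays of ZT18 and ZT22 fell within the DD range. ZT2b was unlike ZT2 in DD, where it was lower by 1.77 on the log2 scale, and in LD it was higher by 0.24.

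pde6hb was high by day and low at night in both conditions. Its LD signals were 2439 at ZT2, 2584 at ZT6, 2268 at ZT10, 1284 at ZT14, 618 at ZT18, 1224 at ZT22 and 2639.8 at ZT2b. Its DD signals were 2504.6 at ZT2, 2391 at ZT6, 2235 at ZT10, 1534 at ZT14, 678 at ZT18, 969 at ZT22 and 1956 at ZT2b. In both conditions the 4 day arrays lay above the 3 night arrays, with ZT18 the lowest. Only 2 of 7 LD arrays exceeded the highest DD array.

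**Figure D1:**
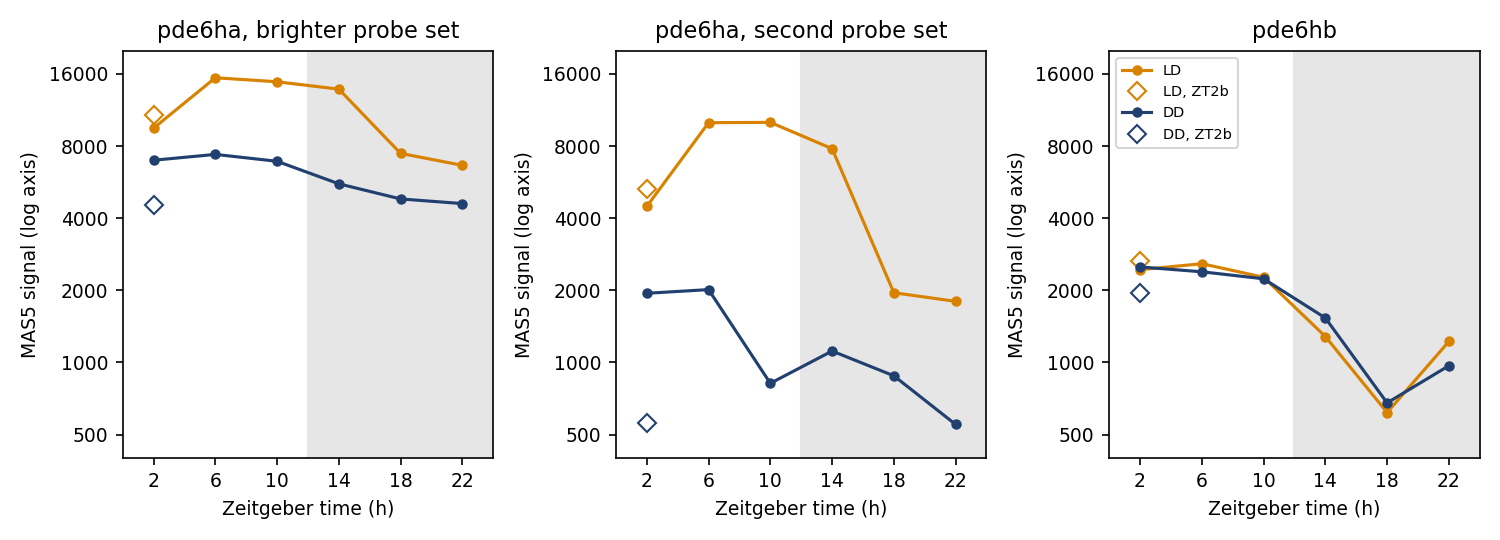
MAS5 signal (log axis) of the pde6ha and pde6hb probe sets against zeitgeber time in hours, with a point per pool of 12 glands, LD in orange, DD in blue, ZT2b as open diamonds and the hours of lights off in LD in grey. For pde6ha the LD points of ZT6 to ZT14 lie above every DD point, and for pde6hb the LD and DD lines run together with a low at ZT18.

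Neighbours in the order of the 14 arrays were mostly closer than the residual spread (SD) that limma gave for the fitted daily waves. This SD, which limma draws toward a trend over all probe sets, was 0.19 log2 for the brighter pde6ha probe set, 0.48 for the second and 0.27 for pde6hb. It is the spread of a single array and not of a difference between arrays, so the groups below are a description and no gap was tested. Of 13 gaps between neighbours, 4, 4 and 3 exceeded it. In the brighter pde6ha probe set the gaps above it separated LD ZT6, ZT10 and ZT14 from LD ZT2b and ZT2, these from LD ZT18, LD ZT22 and DD ZT2, ZT6 and ZT10, and both DD ZT14 and the lowest group (DD ZT18, ZT22 and ZT2b) from the rest. In the second probe set LD ZT6, ZT10 and ZT14 again formed the top group and LD ZT2 and ZT2b the next. The widest of its gaps, 1.15 log2, lay below LD ZT2. pde6hb had a top group of all 8 day arrays of both conditions with no gap above its spread, then DD ZT14, LD ZT14 and LD ZT22, then DD ZT22, and last DD ZT18 and LD ZT18.

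Whether the light cycle changed the transcript levels was asked by comparing LD with DD at the same collection times. pde6ha was higher in LD at every one of the 7 collections with both probe sets. pde6hb was higher in LD at 4 of 7 and lower at 3. The brighter pde6ha probe set averaged 11209 ± 3555 on the LD arrays and 5830 ± 1238 on the DD arrays (mean ± SD of 7, the daily change included). Its LD signal was 1.36 times that in DD at ZT2, 2.09 at ZT6, 2.15 at ZT10, 2.48 at ZT14, 1.55 at ZT18, 1.44 at ZT22 and 2.37 at ZT2b. The ratio was thus highest at ZT14 and lowest at ZT2. ZT2b, taken as the same time as ZT2, had the next highest, so these single-pool ratios set no order of times. The second probe set had 5917 ± 3478 in LD and 1127 ± 614 in DD, with ratios of 2.22 at ZT18 to 12.3 at ZT10. The ratio of 12.3 has the aberrant DD array of ZT10 as its denominator, and the next highest was 9.45 at ZT2b.

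On the scale of log2(signal + 14.9), and with arrays matched by collection time, the brighter pde6ha probe set was 0.90 ± 0.12 higher in LD (SE, limma, adjusted p = 0.000514), a fold of 1.87 with a 95% interval of 1.57 to 2.23. The second probe set was 2.27 ± 0.28 higher (limma, adjusted p = 0.000426), a fold of 4.83 with a 95% interval of 3.17 to 7.38. pde6hb, with 1865 ± 808 in LD and 1753 ± 714 in DD, differed by 0.07 ± 0.11 (limma, adjusted p = 0.694), with a 95% interval of -0.17 to 0.30 log2. That interval lies below the whole interval of either pde6ha probe set. Of all probe sets 20.6% were called in this comparison and 10.0% were called higher in LD, against 2 of the 3 probe sets here, which are both of pde6ha. Without the DD array of ZT10 the differences were 0.87 and 2.05 for pde6ha (limma, adjusted p = 0.000988 and 0.000679).

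Ranked by LD minus DD over the 9299 probe sets, the second pde6ha probe set came first, ahead of crtac1a (2.23) and ptgdsb.2 (2.07). The brighter probe set ranked 104 and pde6hb 3823. The first place held in 15 of 24 alternative treatments of the data, and the lowest place reached was 3. These treatments are not independent checks of the place. Median centring, the robust variance prior, no block and the replicate block could not change the order of the differences. A higher filter only removed probe sets. Leaving out either array of ZT6, ZT10, ZT14, ZT18 or ZT22 gave the same difference, so these treatments were counted in pairs. The fitted difference of the second probe set ran from 2.05 to 2.47 log2 over the 24 treatments.

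**Figure D2:**
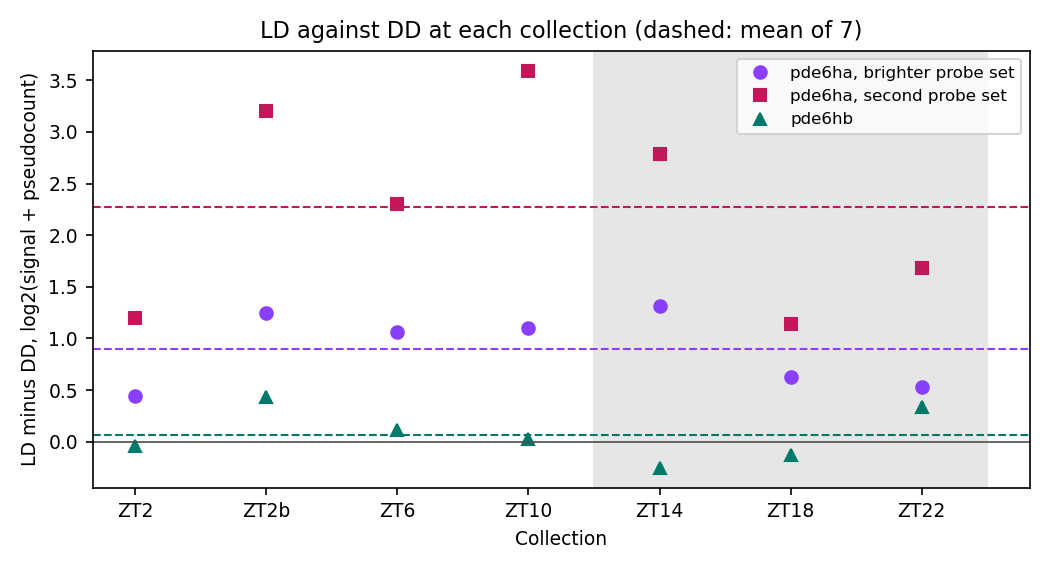
Difference between LD and DD in log2(signal + pseudocount) at each of the 7 collections, for the brighter and second pde6ha probe sets and pde6hb, with dashed lines at the mean of the 7 and the night collections in grey. All pde6ha points lie above 0, and the pde6hb points lie on both sides of it.

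The comparison was divided into the hours when light differed between the conditions and those when both were dark. By day (ZT2, ZT2b, ZT6 and ZT10) the brighter pde6ha probe set was 0.96 ± 0.16 log2 higher in LD (limma, adjusted p = 0.00532). The second was 2.58 ± 0.37 higher (limma, adjusted p = 0.00331), where 4.97% of all probe sets were called higher in LD by day. Without DD ZT10 these were 0.92 and 2.24 (limma, adjusted p = 0.0140 and 0.00970). By night (ZT14, ZT18 and ZT22) the differences were 0.82 ± 0.18 (limma, adjusted p = 0.0394) and 1.87 ± 0.42 (limma, adjusted p = 0.0410), where 1.37% of all probe sets were called higher. pde6hb differed by 0.13 ± 0.15 by day and by -0.02 ± 0.17 at night and was called in neither (limma, adjusted p = 0.598 and 0.968). Its 95% intervals were -0.18 to 0.45 by day and -0.38 to 0.35 at night.

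The LD minus DD difference of pde6ha at night rests on 3 collections. Both probe sets lost their call without any 1 of the 6 night arrays (limma, adjusted p up to 0.203, brighter one without LD ZT14). They also lost it without LD ZT2 or LD ZT2b. The brighter one also lost it with each of the 7 collections as a replicate block (limma, adjusted p = 0.0549). The day and night differences were not shown to be unequal. Day minus night was 0.14 ± 0.24 for the brighter probe set, 0.71 ± 0.56 for the second and 0.15 ± 0.22 for pde6hb (limma, adjusted p = 0.966, 0.916 and 0.960). The interval of the second probe set ran from -0.51 to 1.93 log2, and with single arrays left out its value ran from 0.34 (either array of ZT18) to 1.17 (either of ZT14), with 0.37 without DD ZT10. That of the brighter one was 0.09 without DD ZT10 and ran from -0.0084 (either array of ZT22) to 0.38 (either of ZT14), and that of pde6hb from 0.03 (either of ZT14) to 0.32 (either of ZT22). In this test 0% of all probe sets were called by limma (527 had an unadjusted p under 0.05, and the smallest adjusted p was 0.152).

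Genes listed as markers of other cell types also differed between LD and DD, and their part in the pde6ha difference was not tested. All 4 measured blood markers were lower in LD, led by the globin gene hbba2 at -3.25 ± 0.26, and their summed signal was 7122 to 12147 in LD and 9195 to 18197 in DD. Of 4 glial markers s100b (-1.14) and glula (-0.49) were called lower in LD, with sums over the 4 of 2839 to 4155 against 4351 to 5662. The other glial markers went opposite ways and were not called: gfap by 0.34 and fabp7a by -0.41 (limma, adjusted p = 0.0926 and 0.130). The habenular marker kctd12.1, 1 of 2 tested, was lower by 1.36 on the log2 scale, with sums over the 4 measured markers of 175 to 261 in LD and 307 to 558 in DD. Most of that signal was kctd12.1 itself, at 103 to 138 in LD and 215 to 488 in DD. The other tested marker, kctd12.2, differed by -0.21 and was not called (limma, adjusted p = 0.534), and nrp1a and tac3b were too dim to be tested. ptprc, 1 of 3 tested leukocyte markers, was also lower (-0.86), with sums of 178 to 517 and 251 to 689. Of the list for retinal interneurons, Müller glia and pigment epithelium, rpe65a (0.74) and rlbp1a (0.48) were higher in LD and cahz, which the blood list also holds, was lower (-0.67). Its sums were 8079 to 19351 in LD and 5648 to 10338 in DD. Most of that signal was rpe65a, at 5356 to 16703 in LD and 3703 to 8723 in DD. The bipolar cell marker vsx1 (1.9 to 11 over the arrays) and pax6b, a marker of amacrine and ganglion cells (2.0 to 48.7), were too dim to be tested. Whether rpe65a and rlbp1a were read from cells of these types was not tested. No tested marker of skin (3), muscle (2) or connective tissue (3) was called.

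Of the pineal photoreceptor markers, exorh differed by 0.15 ± 0.08 (limma, adjusted p = 0.231), and otx5, a homeobox factor of photoreceptors, was the 1 of 5 called, at 1.09 ± 0.13 (limma, adjusted p = 0.000347). Summed signals of the 5 were 17983 to 36687 in LD and 18598 to 29885 in DD. In whole glands, fewer cells of a type and less RNA per cell cannot be told apart. No date or batch is given for the arrays, so light and any batch that split LD from DD cannot be told apart either. The part of the hybridisation spikes, higher on most LD arrays, was not tested.

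Which of the transcripts cycle over 24 h was asked with a cosine wave fitted to the log2 signals. All 3 probe sets were called over both conditions together, where 4.86% of all probe sets were called. pde6hb had a trough-to-peak change of 1.92 ± 0.21 log2 (SE) with its peak at ZT6.16 ± 0.39 (limma, adjusted p = 0.000117). The brighter pde6ha probe set changed by 0.99 ± 0.17 with a peak at ZT8.58 ± 0.57 (limma, adjusted p = 0.00469). The second changed by 1.90 ± 0.44 with a peak at ZT8.24 ± 0.78 (limma, adjusted p = 0.0400), a call lost without any 1 of 10 arrays (LD ZT22 gave the highest, limma, adjusted p = 0.133). With DD ZT10 left out the change was 1.09 for the brighter probe set and 2.41 for the second (limma, adjusted p = 0.00305 and 0.00301). The median size over all probe sets was 0.34, a size that noise alone keeps above 0. By size pde6hb ranked 63 of 9299, the second pde6ha probe set 67 and the brighter one 471.

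Within LD all 3 were called, where 4.10% of all probe sets were. The LD and DD waves were fitted in a single model of all arrays, so arrays of both conditions set the spread. pde6ha changed by 1.31 ± 0.22 with the brighter probe set, peaking at ZT8.90 (limma, adjusted p = 0.00797), and by 2.81 ± 0.56 with the second, peaking at ZT8.52 (limma, adjusted p = 0.0240). pde6hb changed by 2.02 ± 0.30 with a peak at ZT5.77 (limma, adjusted p = 0.00345). These LD calls were lost without LD ZT22 for the brighter pde6ha probe set (0.0629), without LD ZT6 (0.0623), ZT10 (0.0590), ZT18 (0.107) or ZT22 (0.144) for the second, and without LD ZT18 for pde6hb (0.0749, all adjusted p from limma). The fitted peak of pde6ha was thus 3.13 h after that of pde6hb in LD with the brighter probe set. Over both conditions the gap was 2.42 h, or 2.08 h with the second probe set. In DD, where the pde6ha wave was not called, it was 1.39 h with the brighter one. None of these gaps was tested.

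Within DD, with the spread again from all arrays, pde6hb was called and pde6ha was not, where 0.645% of all probe sets were called. pde6hb changed by 1.85 ± 0.31 with a peak at ZT6.59 ± 0.58 (limma, adjusted p = 0.0293) and ranked 51 by size. The pde6ha changes were 0.69 ± 0.22 and 1.02 ± 0.56 (limma, adjusted p = 0.355 and 0.659). Without the DD array of ZT10 they were 0.72 and 1.80 (limma, adjusted p = 0.525 and 0.522). The DD wave of the second probe set was 0.46 without DD ZT6 and 0.64 without DD ZT22 (limma, adjusted p = 0.880 and 0.823), so that single arrays moved it both ways. Without DD ZT10, pde6hb kept its call at 1.89 (limma, adjusted p = 0.0404). pde6hb lost its DD call without the DD array of ZT18 (limma, adjusted p = 0.313), which holds its lowest DD value. The call was also lost without DD ZT2, DD ZT22, DD ZT2b or LD ZT2b (limma, adjusted p = 0.0542, 0.0938, 0.0888 and 0.0501). Neither leaving out both ZT2b arrays nor an F-test among the 6 times kept it (limma, adjusted p = 0.140 and 0.0622).

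A call in LD and none in DD does not show that the pde6ha rhythms differ. The difference of the waves was 0.66 ± 0.30 for the brighter probe set, 1.86 ± 0.78 for the second and 0.45 ± 0.39 for pde6hb (limma, adjusted p = 0.754, 0.739 and 0.917). Over all probe sets the median size of this difference was 0.55, and noise alone keeps such a size above 0. In this test 0% of all probe sets were called by limma (662 had an unadjusted p under 0.05, and the smallest adjusted p was 0.0666). Single arrays moved these sizes: the second probe set had 1.01 without DD ZT10, and pde6hb had 0.08 without DD ZT14, 0.68 without DD ZT2 and 0.74 without LD ZT14 (limma, adjusted p = 0.880, 0.994, 0.894 and 0.906). The fitted DD peak of pde6ha had no settled place relative to that in LD. It was ZT7.97 with the brighter probe set and ZT7.43 with the second, but ZT9.00 and ZT9.58 without DD ZT2.

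**Figure D3:**
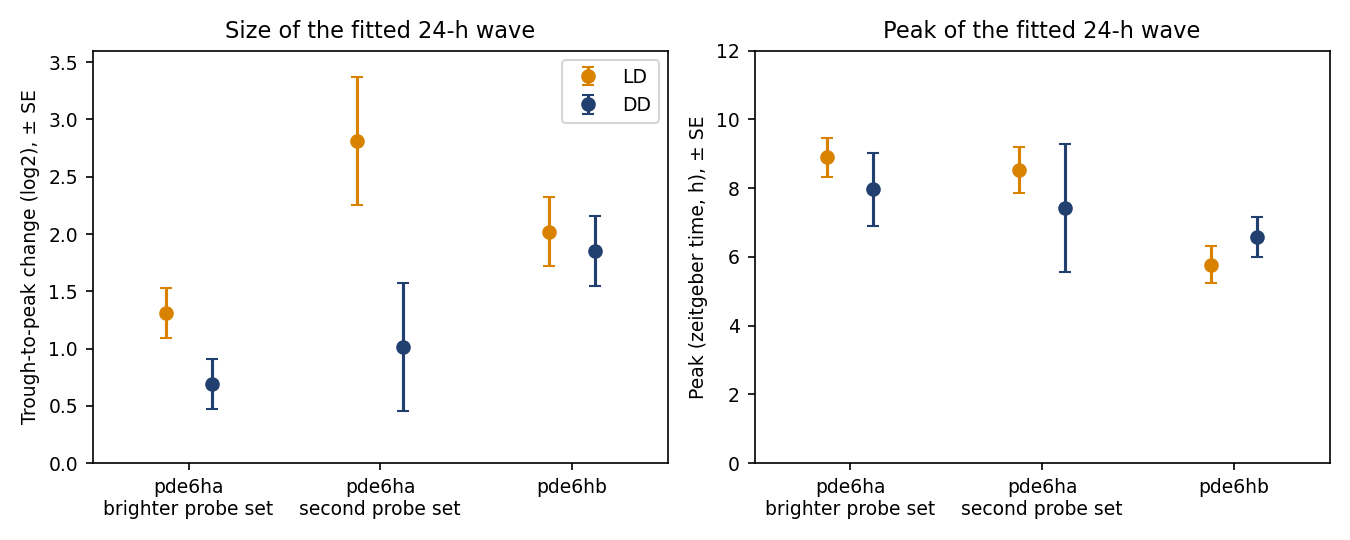
Fitted 24-h waves in LD (orange) and DD (blue), with the trough-to-peak change in log2 on the left and the peak in hours of zeitgeber time on the right; bars are SE. The pde6hb waves are of like size in both conditions (2.02 and 1.85), and the pde6ha waves are larger in LD, although the difference was not called.

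Whether the paralogs changed unequally was tested on their ratio within each array, in which the scaling of the array cancels. The log2 ratio of pde6hb to pde6ha (brighter probe set) ran from -3.56 at LD ZT18 to -1.21 at DD ZT2b. Its level depends on the probes and has no meaning of its own, but its differences between arrays do. The ratio was lower in LD than in DD at all 7 collections, by 0.84 on average (SD 0.44 over collections). The exact two-sided sign-flip permutation test gave p = 0.0156, the smallest that 7 pairs allow, and 0.0156 after adjustment over the tests of this ratio.

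By day the ratio was higher than at night, by 0.82 log2 in LD and 0.81 in DD (exact two-sided permutation test within conditions, p = 0.00408, adjusted p = 0.00816). pde6hb was thus further below its day level at night than pde6ha, as read by the brighter probe set. The second probe set gave a ratio lower in LD by 2.21 (7 of 7 collections, exact permutation p = 0.0156). Its day minus night difference was 0.38, with 0.10 in LD and 0.66 in DD (exact permutation p = 0.352).

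Further ratios were chosen after values were seen, for a family of 10 tests with the 2 above. The second pde6ha probe set rose more than the brighter one from DD to LD, by 1.37 ± 0.68 log2 (SD of 7 collections, higher in 7 of 7, exact permutation p = 0.0156, adjusted over the family 0.0260). The probe sets of a single gene therefore disagree on the size of its difference between LD and DD while sharing its direction. Against pde6c, the cone catalytic subunit, pde6ha rose by 0.72 ± 0.51 in LD (7 of 7, exact permutation p = 0.0156, adjusted 0.0260). pde6hb against pde6c differed by -0.11 (4 of 7 negative, exact permutation p = 0.594). By day pde6hb was higher relative to pde6c than at night by 1.06 (1.37 in LD and 0.76 in DD, exact permutation p = 0.00245, adjusted 0.0204). For pde6ha over pde6c this was 0.25 (exact permutation p = 0.334). Without the collection of ZT10 the differences between LD and DD were -0.79 for pde6hb over pde6ha, -1.98 with the second probe set, 1.18 for the second over the brighter probe set and 0.57 for pde6ha over pde6c (exact permutation p = 0.0312 each, the smallest that 6 pairs allow).

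**Figure D4:**
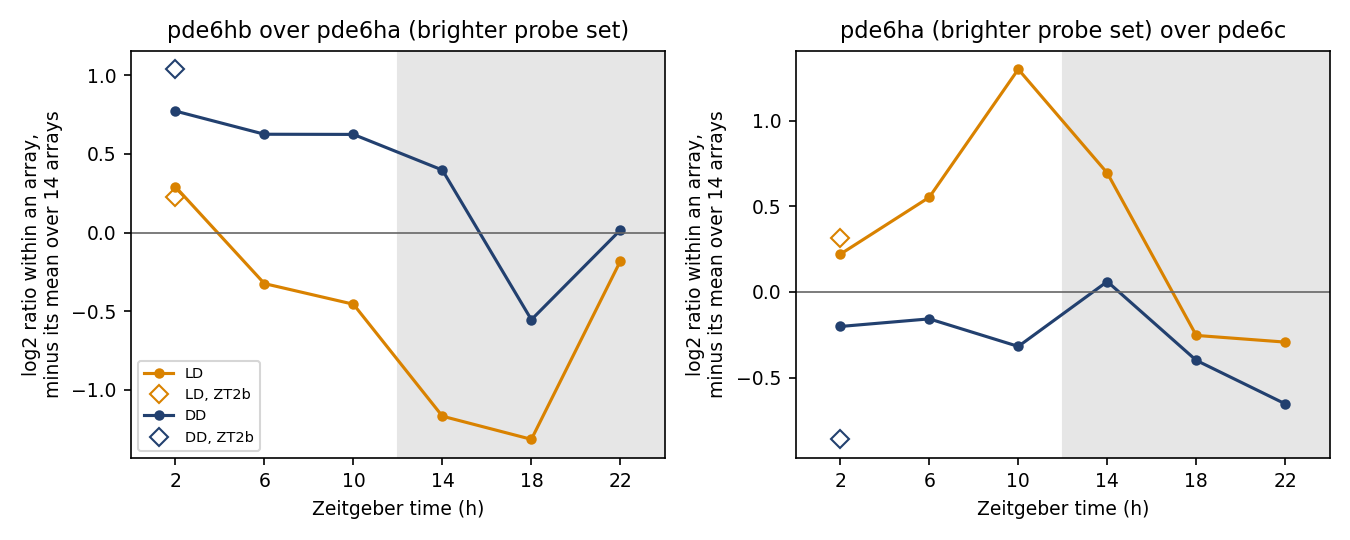
Log2 ratio of signals within each array against zeitgeber time in hours, LD in orange, DD in blue and ZT2b as open diamonds. The ratio of pde6hb to pde6ha is lower in LD than in DD at each of the 7 collections, and lowest at LD ZT18.

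Of the measured catalytic subunits, pde6a was called higher in LD, and pde6c was called in neither comparison. pde6c had signals of 5055 to 8827 in LD (mean 7068 ± 1115) and 4480 to 7239 in DD, ranges that overlap widely. It differed by 0.18 ± 0.12 between LD and DD (limma, adjusted p = 0.307) and had a wave of 0.32 ± 0.16 (limma, adjusted p = 0.465). pde6a, a catalytic subunit of rods, was higher in LD by 0.43 ± 0.11 (limma, adjusted p = 0.0164), with 4863 ± 968 in LD and 2638 to 4348 in DD. It had a wave of 0.48 ± 0.16 that was not called (limma, adjusted p = 0.203).

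Of 19 listed genes of the phosphodiesterase and its partners, 10 were measured and 8 tested, pde6ha and pde6hb among them. The cone transducin alpha gene gnat2, whose product binds the inhibitory subunit, differed by 0.02 ± 0.12 (limma, adjusted p = 0.926) and its rod counterpart gnat1 by 0.49 ± 0.23 (limma, adjusted p = 0.151). rgs9a and rgs9bp, which encode a GTPase activator that ends the transducin signal and its anchor, differed by 0.25 ± 0.14 and -0.10 ± 0.15 (limma, adjusted p = 0.239 and 0.682). None of these 4 had a called rhythm over both conditions. unc119b, a lipid-binding carrier of transducin (18.2 to 30.4 over the arrays), and rgs9b (1.1 to 31.9) were too dim to be tested.

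Among the other phototransduction genes, 32 of 73 listed were measured and 22 tested. Of these, 8 were called rhythmic over both conditions, 7 in LD and 2 in DD, 5 were higher in LD and 2 lower. Over all 6116 tested genes these counts were 300, 268, 38, 606 and 627. The median LD minus DD of the 22 was 0.19 log2 and that of all genes -0.0045, and the median waves were 0.52 and 0.34. Of the 5 higher in LD, rcvrn3, a calcium sensor of the recoverin family, differed by 1.02 ± 0.12, the cyclase gene gucy2d by 0.80 ± 0.19 and gngt2a, a cone transducin gamma gene, by 0.45 ± 0.12 (limma, adjusted p = 0.000255, 0.0103 and 0.0236). The opsin genes opn1sw2 (-1.33 ± 0.34) and opn1lw1 (-0.93 ± 0.16) were lower in LD (limma, adjusted p = 0.0150 and 0.00214).

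The 5 largest called waves of that list were those of guca1c, which encodes a cyclase activator (3.31 ± 0.22, peak ZT3.96), the transducin genes gngt2b (2.25 ± 0.25, peak ZT14.4), gnb3b (1.51 ± 0.25, peak ZT15.1) and gnb1b (1.45 ± 0.22, peak ZT12.5), and opn1lw1 (2.07 ± 0.25, peak ZT12.1). The pde6hb peak at ZT6.16 and the pde6ha peaks at ZT8.24 and ZT8.58 fell after that of guca1c and before those of the other 4. No test of these gaps was run.

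**Figure D5:**
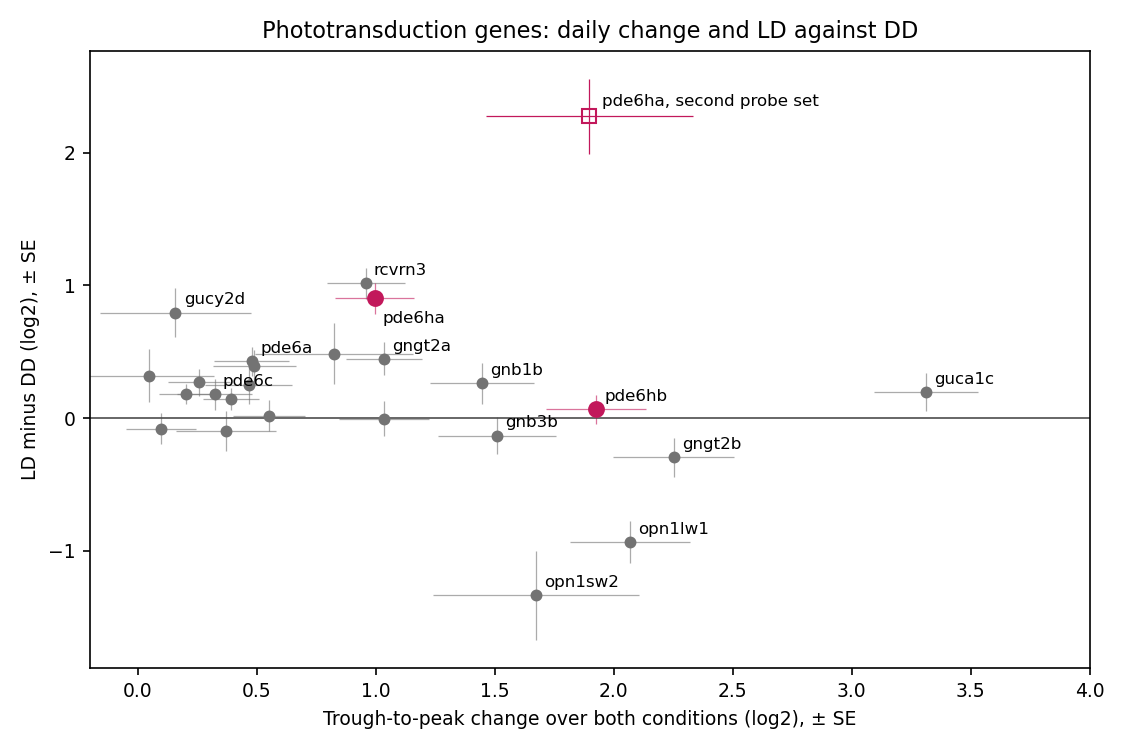
LD minus DD (log2, vertical) against the trough-to-peak change of the 24-h wave over both conditions (log2, horizontal) for the tested phototransduction genes. pde6ha and pde6hb are named among them. Each gene has 1 probe set, and the second pde6ha probe set is added as an open square. pde6ha lies at a wave of 0.99 and a difference of 0.90, and pde6hb at 1.92 and 0.07. The second pde6ha probe set lies at 1.90 and 2.27.

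Likeness to other transcripts was measured as Pearson's r of log2 signal over the 14 arrays, with 6115 genes compared and no test. Since both conditions enter, a shared difference between LD and DD raises r as much as a shared daily course. For the brighter pde6ha probe set the most alike were tardbpb (0.928), rbp4l (0.920), ppm1ba (0.896), srpra (0.890) and zgc:55781 (0.888), and the most opposed hes6 (-0.929), emp2 (-0.911) and ntd5 (-0.904). The second probe set had tardbpb (0.924), ptgdsb.2 (0.906), zgc:55781 (0.899), srpra (0.898) and plk3 (0.893), with emp2 (-0.930), tmem230a (-0.914) and ntd5 (-0.906) opposed. The lists of 5 thus had tardbpb, zgc:55781 and srpra in common. Apart from ptgdsb.2 (limma, adjusted p = 0.0294), no gene of these lists had a called wave over both conditions. All were called higher in LD (limma, adjusted p from 6.98e-05 to 0.0187). They were chosen by r with pde6ha on these same arrays, so a shared LD minus DD difference follows in part from that choice. By Spearman's rho the leading 5 held 3 of the first list and 1 of the second.

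For pde6hb the most alike were pkma (0.912), aclya (0.867), aldocb (0.863), cdkal1 (0.862) and rbp3 (0.860), none of which was among the 5 of either pde6ha probe set. The most opposed were ube2h (-0.887), zgc:158423 (-0.883) and ptp4a1 (-0.853). All 5 alike had called waves over both conditions with peaks from ZT5.08 to ZT6.01, near that of pde6hb. They were chosen by r with pde6hb on these same arrays, so a shared wave follows in part from that choice. Of them aldocb and rbp3 were also higher in LD, by 0.41 and 0.92 log2 (limma, adjusted p = 0.00923 and 0.00628), which pde6hb was not. By Spearman's rho 2 of the 5 remained, cdkal1 and rbp3. Between the members r over the 14 arrays was 0.97 for the pde6ha probe sets (0.99 in LD and 0.82 in DD, 7 arrays each). For pde6hb with the brighter pde6ha probe set r was 0.60 within LD and 0.73 within DD, and 0.44 over both together.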

How the data were processed

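Per the submitters' processing notes, the authors used GCOS and MAS5, and no version was stated. The deposited values are intensities, 1 MAS5 signal per probe set and array, scaled so that the mean trimmed by 2% at each end was 150.04 or 150.05 on every array. The table held 15617 probe sets, 115 of them controls; 1 with an empty cell was left out, and 0 columns belonged to another series. In the platform annotation 10794 probe sets had 1 gene symbol, 135 several and 4572 none; 1 symbol was updated. Nothing says that pools were separate experiments. ZT2 apart, each time had 1 pool in each condition, so limma p-values measure the spread of these pools around the fitted model. That spread may be technical. It also holds any true departure from a cosine wave, or from an LD minus DD difference that is equal at all times.

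Signals were analysed as log2(signal + 14.9), the 25th percentile of all values, which understates changes of dim probe sets, with no further normalisation. Probe sets with a mean signal above 29.179 (the 40th percentile) entered limma models (version 3.58.1, under R 4.3.3, lmFit and then eBayes with its trend option), and p-values were adjusted by Benjamini-Hochberg over all 9299 and called under 0.05. Adjusted p-values of single genes are limma's. Rhythms used cosine and sine terms of 24 h. LD against DD used 6 times of collection as a block, with ZT2b as ZT2. Waves within LD or DD, and differences by day or at night, came from models of all arrays with a shared estimate of the spread. Signal ratios were tested by exact permutation, on the sign of 7 paired differences (128 arrangements) or day and night labels within each condition (1225 arrangements). The number of arrays limits the precision. The fits were tested on simulated data with known changes.

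Genes named beyond pde6ha and pde6hb were the measured phosphodiesterase genes, the 3 called phototransduction genes with the largest LD minus DD difference in each direction, the 5 with the largest waves, and the 5 most alike and 3 most opposed by r. A gene with several probe sets was represented by the one with the highest mean. The members and lists were chosen with earlier results of these data known. Promoter sequence was not analysed here. Alternatives were another pseudocount (1 or 50), filter, scaling, variance prior, block and rhythm test, 1 probe set per gene, and arrays left out. Figures were drawn with matplotlib 3.10.9.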

Additional observations from a re-analysis of the deposited data

How the results depend on the processing

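Values in brackets here are adjusted p-values from limma unless named otherwise. The LD minus DD difference of pde6ha kept its direction and call in all 25 alternatives for the brighter probe set and all 24 for the second, pde6hb was called in none of 25 (0.512 to 0.983), and the pde6hb rhythm over both conditions was called in all 24 (8.21e-05 to 0.00142). Replacing the wave by an F-test among the 6 times ended the calls of the brighter pde6ha probe set over both conditions (0.115) and in LD (0.175), of the second over both (0.230) and in LD (0.240), and of pde6hb in DD (0.0622). Leaving out both ZT2b arrays ended the call of the brighter probe set by day (0.0608) and at night (0.0764), of the second at night (0.0663) and over both (0.0615), and of pde6hb in DD (0.140). At night the brighter probe set also lost its call with no filter (0.0843), no block (0.0960) and a replicate block, in which the 7 collections that pair LD with DD arrays each have a term (0.0549), and the second with no filter (0.0539), a robust variance prior (0.0705) and no block (0.0836). The rhythm of the second probe set over both conditions was not called with no filter (0.0510), median centring (0.0521) or the robust prior (0.0923), nor in LD with the robust prior (0.0593). The causes were not tested.

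With 1 array left out in turn, the brighter pde6ha probe set ranged from 0.00257 to 0.0194 for the rhythm over both conditions, from 0.00443 to 0.0629 in LD (lost without LD ZT22) and from 0.0242 to 0.203 for LD against DD at night. The second ranged from 0.00301 to 0.133 over both conditions, with the call lost without any of 10 arrays (DD ZT6, ZT14 and ZT22 and all 7 LD arrays), from 0.00927 to 0.144 in LD and from 0.0174 to 0.197 at night. pde6hb ranged from 0.00240 to 0.0749 in LD (lost without LD ZT18) and from 0.0196 to 0.313 in DD, where the call was also lost without DD ZT2 (0.0542), DD ZT22 (0.0938), DD ZT2b (0.0888) or LD ZT2b (0.0501). The uncalled day minus night difference of the brighter probe set turned in sign without either ZT22 array (-0.0084 log2; 0.897 to 0.999 over arrays). The uncalled night difference of pde6hb turned with median centring (0.953) and without either array of ZT14 or ZT18 (0.712 to 0.972 over arrays).

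The day minus night ratio of pde6hb to pde6ha was 0.38 with the second probe set (exact permutation p = 0.352) and 0.58 to 1.01 with a collection left out. The LD minus DD ratio kept its sign and call in all 12 alternatives. Those that left out 1 collection could not do otherwise. All 7 differences were negative, so any 6 of them give the smallest p that 6 pairs allow (exact permutation p = 0.0312). Leaving collections out of the other ratios was added after seeing the data, and turned the uncalled difference of pde6hb over pde6c without ZT14 (0.0244, exact permutation p = 0.906; -0.2205 to 0.0244 over collections). Of the other phototransduction genes, 5 were rhythmic with the F-test; 3 were higher in LD and 1 lower without both ZT2b arrays, as with no block, and 3 to 7 were higher with an array left out.

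Over all probe sets, rhythm calls without both ZT2b arrays were 261 over both conditions, 156 in LD and 13 in DD, and with the F-test 140, 136 and 16; with an array left out they were 283 to 571, 155 to 601 and 14 to 103. LD against DD gave 943 calls without both ZT2b arrays, where the main run gave 1915 of 9299. With 1 probe set per gene it gave 1267, but of only 6116 probe sets tested. By day there were 83 without both ZT2b arrays (858 with all, 323 to 827 with an array left out). At night there were 16, with 138 for no filter and 132 for the replicate block (272 with all, 0 to 598 with an array left out).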
